A study of Glycine max with 12 samples.

Results

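The comparison set the black saddle against the yellow region of the seed coat within 1 soybean line, Clark 18a. Its members were chosen by the labels, not by any measured value: the 6 libraries, of 12 in the series, that came from the immature seed coat of this line, 3 from the part that was going to turn black and 3 from the part that was going to turn yellow. Clark 18a carries the alleles i-i at the I locus and k1 at the K1 locus. The other line of the series, Clark 8, carries i-k and K1 and supplied the other 6 libraries, again 3 for each region. In all groups the plants grew in a greenhouse, the seeds were taken at 100 to 200 mg fresh weight, the coats were dissected into regions and lyophilized, and polyadenylated RNA was sequenced. Since both loci separate the lines, what differs between Clark 18a and Clark 8 may come from either locus or from elsewhere in the genome. The labels call the libraries biological repeats, but they do not say whether a repeat was a separate set of plants or how many plants were pooled, so the p-values measure only the spread between these samples, which may be technical.

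The colours of the soybean seed coat come from flavonoid pigments, the anthocyanins and proanthocyanidins, laid down in the outer cell layers of the coat. Alleles of the I locus keep pigment out of parts of the coat through small RNAs that silence chalcone synthase, the enzyme that opens the flavonoid pathway, and with i-i alone the pigment is held back to the hilum, the scar where the seed was attached. The series title links mutations in Argonaute5, one of the proteins that carry small RNAs to their targets, with the K1 locus and with the saddle pattern, in which pigment spreads from the hilum over the flanks of the seed. Both regions of Clark 18a come from coats of the same genotype, and the comparison asks which transcripts differ between a part that will be pigmented and a part that will not.

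Transcript levels were deposited as RPKM, a number of hits set relative to the length of the transcript and to the depth of the library. Summed hits were 175673530, 118123345 and 85273071 in repeats 1, 2 and 3 of the Clark 18a black saddle and 160579561, 170339599 and 89505760 in the yellow region. Between 27279 and 28987 genes reached 1 RPKM in each of these libraries, and the 10 most abundant genes held 4.97% to 6.62% of all gene RPKM. Repeat 3 was the shallowest of each group. Neither the deposited table nor the reference used here pairs the gene identifiers with names, so genes are given by identifier, no role is given to any of them, and the label of the tissue was not checked against marker genes.

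In the fit that did not pair the regions by repeat, the black saddle and the yellow region differed in 15% of the genes tested. The larger differences lay mostly on the side of the black saddle. Paired by repeat, 39% passed, 6097 higher and 5919 lower in black, as described below. The share and the balance of directions thus depended on the pairing. Of 30775 genes tested with limma on log2(RPKM + 1), 4607 (15%) passed an adjusted p of 0.05: 2726 (8.86%) were higher in the black saddle and 1881 (6.11%) were lower. Among the genes that passed, 1541 rose and 463 fell by at least 1 on the log2 scale. At a size of at least 2 the counts were 397 and 42, at 3 they were 96 and 9, and at 4 they were 27 and 0. The median rise was 1.10 and the median fall was -0.74, on a scale on which all tested genes had a median of -0.02. In whole seed coat pieces, fewer cells of a type and less RNA per cell cannot be told apart.

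**Figure D1:**
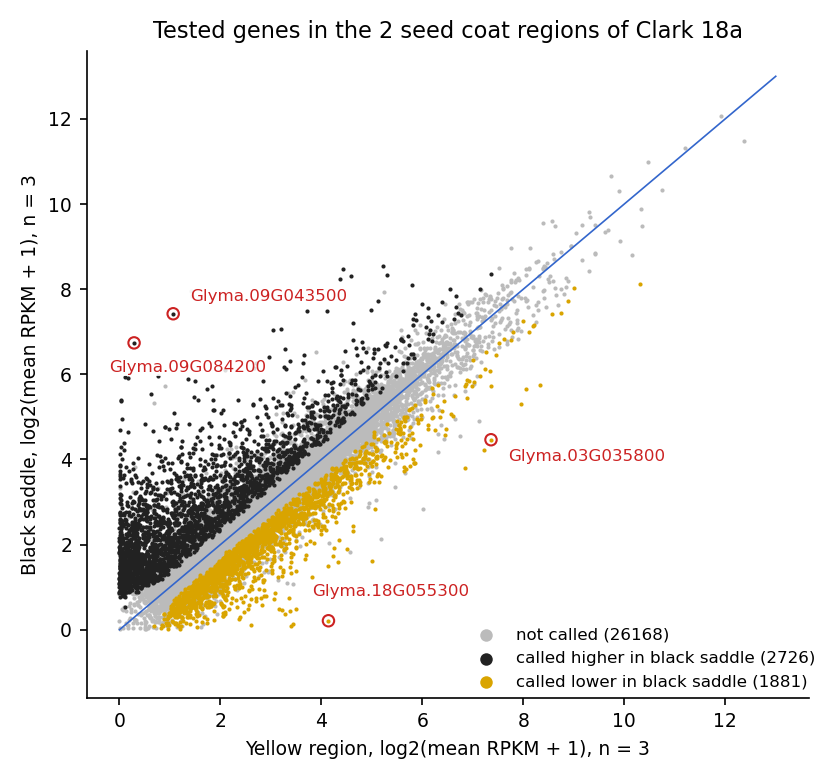
Mean level of each tested gene in the yellow region (horizontal) and the black saddle (vertical) of Clark 18a, both as log2(mean RPKM + 1), n = 3 libraries per region; black points are the 2726 genes called higher in the black saddle, yellow points the 1881 called lower, grey points the genes not called, and the line marks equal levels. The black points reach far from the line at the left edge, where the yellow region is near 0 RPKM, whereas the yellow points lie closer to it.

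Many of the rises began from low levels in the yellow region. Genes that rose had a median level of 4.91 RPKM in the black saddle and 1.24 RPKM in the yellow region, and 1235 of the 2726 averaged under 1 RPKM in yellow. Of these, 57 averaged at least 10 RPKM in the black saddle. Genes that fell had a median of 2.60 RPKM in the black saddle and 5.16 RPKM in yellow. Of the 1881, 411 averaged under 1 RPKM in black, and 3 of those reached 10 RPKM in yellow. The rises thus included more genes that were near absent in 1 region and well expressed in the other, as a count of genes chosen by this same contrast and given here as a description. Over all 30775 tested genes, 2725 averaged under 1 RPKM in yellow and 2258 in black. In 63, 1 region averaged under 1 RPKM and the other at least 10 RPKM. Genes this low entered the test only by reaching 1 RPKM in 3 libraries, often those where they are high, so these counts are no support.

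The 4607 called genes were 15% of those tested, and those of each direction held the following shares of the transcript pool. Genes that rose held 9.64%, 10.37% and 11.03% of all gene RPKM in black repeats 1, 2 and 3, and 3.54%, 3.71% and 4.19% in the yellow repeats. Genes that fell held 3.50%, 3.44% and 3.49% in black and 8.02%, 8.52% and 7.31% in yellow. The 3 libraries of a region lay close together in these shares. That they did not overlap with those of the other region follows from how the genes were chosen and is no support.

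Pairing the regions by repeat raised the number of calls. It could not change a difference or its direction, since every repeat holds both regions. With the repeat of each line as a block, 12016 genes (39%) passed in Clark 18a, 6097 higher and 5919 lower, and all 4607 genes of the unblocked fit were among them. The rises and falls were then nearly equal in number, but at a size of at least 2 there were still 407 rises and 51 falls. Within the 3 pairs the median difference of the 2726 risen genes was 1.08, 1.11 and 1.04, and each of these genes was higher in black in all 3 pairs. For the fallen genes it was -0.67, -0.82 and -0.70, and 1880 of 1881 were lower in all 3 pairs. The genes were called on the mean of these same pair differences, so that agreement is no support. Across all tested genes, the black libraries all lay above the yellow ones for 4837 genes (15.7%) and all below for 4536 (14.7%), while 30.4% were higher and 32.8% lower in all 3 pairs.

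**Figure D2:**
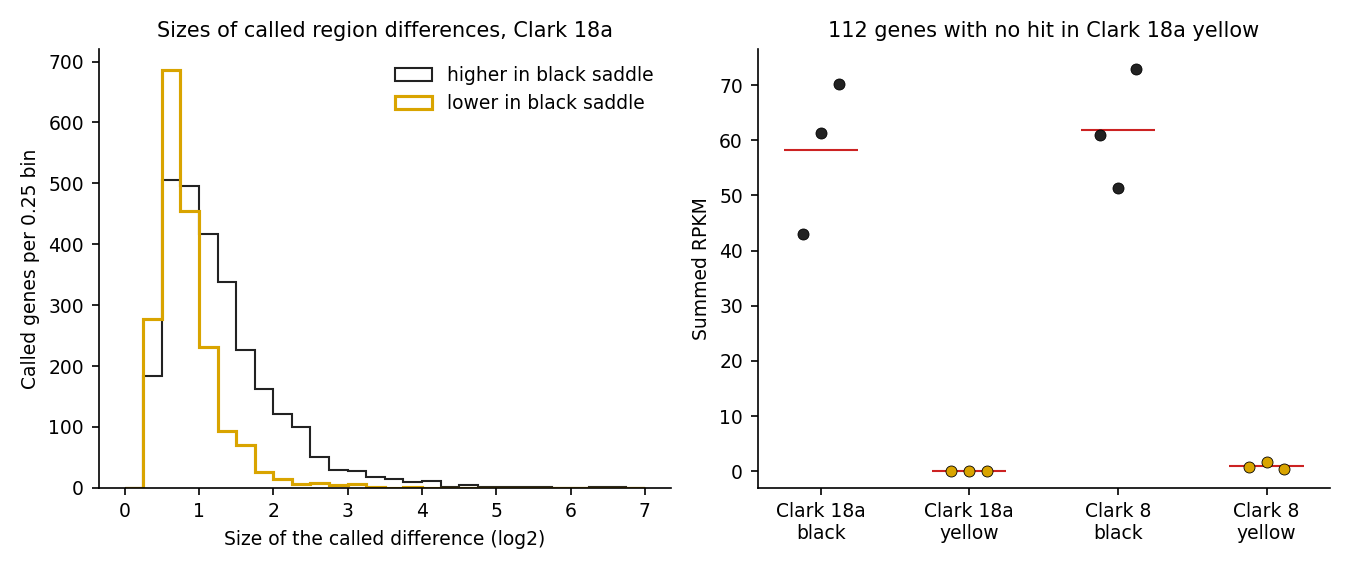
Left, number of called genes (vertical) by size of the difference on the log2 scale in bins of 0.25 (horizontal), for genes higher (black line) and lower (yellow line) in the Clark 18a black saddle; the rises extend past 4, where 27 genes lie and no fall does. Right, summed RPKM (vertical) in each of the 12 libraries of the 112 genes with at least 10 hits in every Clark 18a black library and none in any Clark 18a yellow library; points are libraries and red lines group means, and both lines are high in black and at or near 0 in yellow.

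Counted over all 56044 genes, tested or not, 112 had no hit in any of the 3 yellow libraries of Clark 18a and at least 10 hits in each black library, whereas 2 genes showed the reverse. This count was made after the data had been seen and is a description. With a minimum of 3 hits the numbers were 252 and 14, with 30 they were 45 and 0, and with 100 they were 16 and 0. Leaving out repeat 3, the shallowest, gave 227 and 9 at the minimum of 10 hits. The yellow libraries were not shallower as a group than the black ones: repeats 2 and 3 were deeper in yellow, and repeat 1 was deeper in black. A count of 0 allows up to 3 hits in a library, and these limits cover counting error only.

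These 112 genes were mostly rare transcripts even in the black saddle. Their mean level there ran from 0.0529 to 4.23 RPKM with a median of 0.276, and 13 of them averaged at least 1 RPKM. Only 15 were abundant enough to be tested, and 14 of those passed as higher in black, against 8.86% of all tested genes; the choice of the genes by the same libraries makes that count no support. Summed over the 112 genes there were 10061, 9390 and 7739 hits in the Clark 18a black libraries and 0 in each yellow one. In Clark 8, whose libraries the choice did not use, the same genes had 9989, 9244 and 7927 hits in black and 198, 303 and 37 in yellow. The black libraries of Clark 8 lay above its yellow ones without overlap for 111 of the 112, against 13.7% of all 56044 genes, and 16 of the 112 had no hit in any Clark 8 yellow library. By the same rule applied to Clark 8 there were 29 such genes for black and 4 for yellow, and 10 genes met the rule for black in both lines.

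Both genes found in the yellow libraries alone were rare. Glyma.05G133000, on chromosome 5, had 41, 29 and 31 hits in the yellow repeats and 0 in each black one, and Glyma.18G294500, on chromosome 18, had 33, 15 and 16 hits and again 0. Their levels in these libraries reached at most 0.369 and 0.225 RPKM. In Clark 8 yellow they had 71, 77 and 21 hits and 34, 30 and 4 hits, against 0, 1 and 0 hits in black for each of them. They are named because they are the whole of that count, after their values were seen.

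On the log2(RPKM + 1) scale, the largest rise among called genes with a mean of at least 5 RPKM was that of Glyma.09G043500 on chromosome 9. Its levels were 147, 211 and 153 RPKM in black repeats 1, 2 and 3 and 0.167, 0.413 and 2.69 RPKM in the yellow repeats. All black libraries were high, and yellow repeat 3 was the highest of the low group. The means were 170.5 ± 35.1 and 1.09 ± 1.39 RPKM (SD, n = 3 each), a ratio of 156, and the limma difference was 6.53 on the log2(RPKM + 1) scale (SE 0.567, adjusted p = 3.62e-05). It ranked 164 among all genes in the black saddle and 27636 in the yellow region.

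Glyma.09G084200, on the same chromosome, had the next largest rise on that scale. It measured 70.4, 175 and 71.4 RPKM in black and 0.343, 0.145 and 0.178 RPKM in yellow. Black repeat 2 stood above the other black libraries, and no yellow library came near them. The ratio of the means, 106 ± 60.3 to 0.222 ± 0.106 RPKM (SD, n = 3 each), was 476, and the limma difference was 6.31 (SE 0.347, adjusted p = 4.07e-06). The order of the pair depended on the scale: with a pseudocount of 0.1 the rises of Glyma.09G043500 and Glyma.09G084200 were 7.86 and 8.27, and with voom 8.47 and 8.78. Both rises passed in each of the 29 other settings tried. In Clark 8 the pair also rose, to 245 ± 108 and 102 ± 38.8 RPKM in black from 2.57 ± 2.83 and 0.276 ± 0.212 RPKM in yellow.

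**Figure D3:**
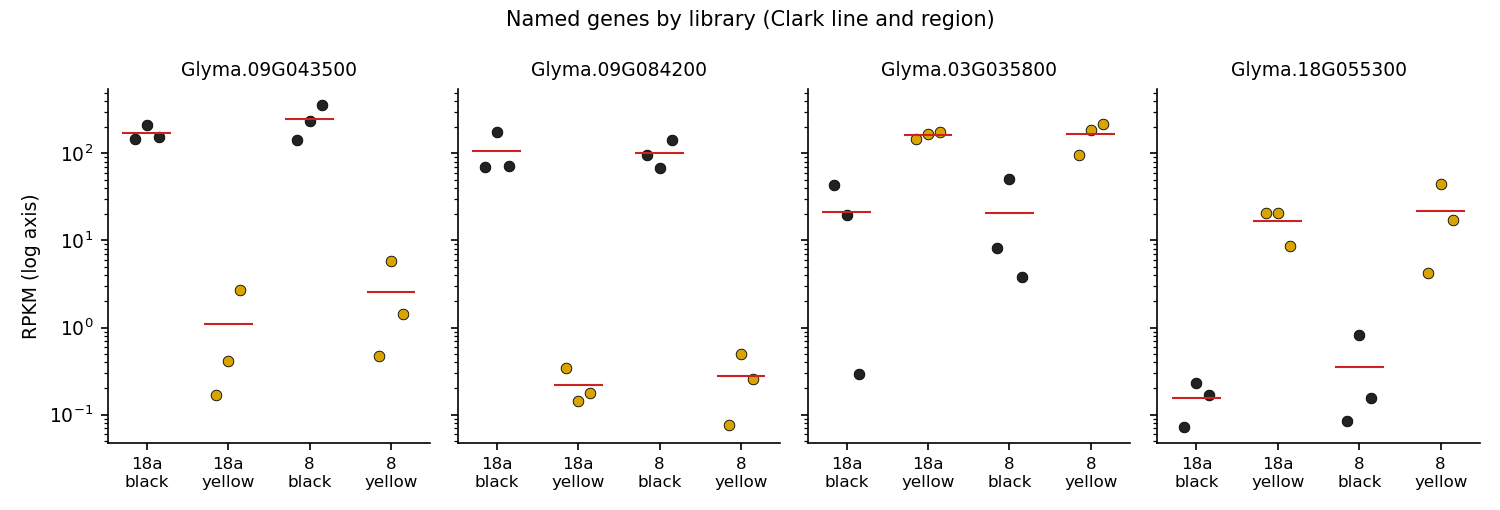
RPKM on a log axis (vertical) of the 4 genes with the largest rises and falls in Clark 18a on the log2(RPKM + 1) scale, in the black saddle (black points) and yellow region (yellow points) of Clark 18a and of Clark 8 (horizontal); points are libraries in the order of repeats 1 to 3 and red lines are arithmetic means. The 2 left genes are 156 and 476 times higher in Clark 18a black, and the third panel shows the wide spread of Glyma.03G035800 in black, from 43.2 to 0.289 RPKM.

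The largest fall on the log2(RPKM + 1) scale, that of Glyma.03G035800 on chromosome 3, was uneven between libraries. It measured 43.2, 19.7 and 0.289 RPKM in the black repeats and 147, 165 and 177 RPKM in the yellow ones. The yellow libraries lay close together, whereas the black ones were spread wide, with repeat 3 near 0. The means were 21.0 ± 21.5 and 163 ± 15.02 RPKM (SD, n = 3 each), 7.75-fold lower in black, with a limma difference of -3.95 (SE 1.15, adjusted p = 0.0409). Without black repeat 3 the difference was -2.44 (adjusted p = 0.0792), and without any repeat 3 library it was -2.38 (adjusted p = 0.086). The call was lost in 14 of the 29 other settings, with an adjusted p from 0.0146 to 0.106 over all of them. Paired by repeat it passed (adjusted p = 0.0232), and the 3 pair differences were -1.75, -3.01 and -7.11.

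Glyma.18G055300, on chromosome 18, fell more evenly. Its black libraries held 0.0727, 0.230 and 0.169 RPKM, from 16, 34 and 18 hits, and its yellow libraries held 20.8, 20.5 and 8.54 RPKM. Yellow repeat 3 was the lowest of its group and still far above every black library. The means of 0.157 ± 0.0792 and 16.6 ± 7.006 RPKM (SD, n = 3 each) differed 106-fold, with a limma difference of -3.83 (SE 0.617, adjusted p = 0.00183). With a pseudocount of 0.1 its fall of -5.97 was larger than the -4.55 of Glyma.03G035800. That order also held with a pseudocount of 0.5, array weights and voom. It held too without black repeat 3, without yellow repeat 3 and without all repeat 3 libraries. Of the 29 other settings, the call was lost with voom on the recovered hits (adjusted p = 0.0572). In Clark 8 the gene measured 0.353 ± 0.407 RPKM in black and 21.8 ± 20.3 RPKM in yellow.

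The most abundant gene of each region did not pass as different between the regions in the unblocked fit. Glyma.17G013600 was the highest gene in all 3 Clark 18a black libraries, at 4481, 4831 and 3650 RPKM, and measured 4085, 3839 and 3700 RPKM in yellow, where the ranges overlapped with black (limma difference 0.15, SE 0.334, adjusted p = 0.823). Glyma.16G107500 was the highest in all 3 yellow libraries, at 4455, 5677 and 5658 RPKM, against 2055, 3330 and 3172 RPKM in black. These groups did not overlap, and its difference of -0.91 (SE 0.369) had an adjusted p of 0.131. Its mean was 1.85 times higher in yellow, and the 3 pair differences were -1.12, -0.77 and -0.83. Limma with the repeat of each line as a block gave an adjusted p of 0.0566. The gene passed in 4 of the 29 other settings, with adjusted p-values between 0.024 and 0.0465. Both were picked for their level after the values were seen.

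By level, the share of tested genes that passed was highest among rare transcripts in the unblocked fit and nearly even across levels in the blocked one. Of genes with a mean under 1 RPKM over the 12 libraries, 25.8% passed and 76.3% of these were higher in black. A gene that rare entered the test only by reaching 1 RPKM in 3 libraries, often those of the region where it is high, so this class was bound to hold differences. From 1 to 3 RPKM 16.3% passed, and in the 4 classes above that 13% to 14.4% did. Even among the 340 genes at 100 RPKM or more, 30 passed as higher and 19 as lower. Blocked by repeat, 41.4% of the genes under 1 RPKM passed and 43.2% of those at 100 RPKM or more. In that fit the share of called genes that were higher was 61.9% under 1 RPKM, and from 1 to 3 RPKM it was 44%, where the unblocked fit gave 58.2%.

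The changed genes were spread over the whole genome. The share of tested genes that passed ran from 13.7% on chromosome 8 to 16.9% on chromosome 1. The balance of directions varied more: genes higher in black made up 49.8% of the called genes on chromosome 10, 50.5% on chromosome 20 and 67.6% on chromosome 14. Blocked by repeat, these shares were 46.7%, 45.3% and 52.4%, so most of the excess on chromosome 14 was not found in that fit. Most called genes had no called neighbour of the same direction in the order of tested genes. There were 3549 such single genes and 425 pairs, 57 runs of 3, and 7 runs of 4 or more.

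The longest run held 9 genes on chromosome 3, all higher in the black saddle, within 18 genes of the table. Their summed level was 31.4, 19.2 and 19.8 RPKM in black and 6.42, 4.38 and 6.59 RPKM in yellow, a ratio of means of 4.06, and no single member averaged above 3.75 RPKM in black. In Clark 8, where 7.51% of all tested genes and 72.7% of the genes risen in Clark 18a passed as higher, 8 of the 9 did, and the sum was 17.8 ± 4.55 RPKM in black and 3.43 ± 2.39 in yellow (SD, n = 3 each). A run of 5 adjoining genes on chromosome 14 rose from a sum of 3.30 ± 2.15 to 24.96 ± 5.79 RPKM, 7.57 times, with members of nearly equal level, 4.55 to 5.34 RPKM, and all 5 passed in Clark 8. A run of 5 on chromosome 18 was higher too, at a sum of 76.5 ± 22.5 against 29.5 ± 5.14 RPKM, and 1 of its members passed in Clark 8. Another, of 4 genes on chromosome 16, rose from 0.610 ± 0.224 to 4.85 ± 0.865 RPKM. Its members averaged only 1.12 to 1.26 RPKM in black. Their sum reached at most 0.834 RPKM in any yellow library of either line. They thus entered the test only through black libraries, where they are high.

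Runs also occurred among the genes lower in black. On chromosome 2, 4 adjoining genes together held 9.10, 6.58 and 8.10 RPKM in the black libraries and 50.0, 50.3 and 47.1 RPKM in the yellow ones, with all 4 passing in Clark 8 as well, where 60% of the genes fallen in Clark 18a passed as lower. On chromosome 16, a run of 6 fell from a sum of 10.6 ± 1.502 to 2.88 ± 0.0676 RPKM, and on chromosome 9 a run of 4 fell from 9.54 ± 0.293 to 2.98 ± 0.593 RPKM (SD, n = 3 each). Neighbouring copies of near-identical sequence can share hits. That was not tested, so a run is not a count of independent genes. The calls of run members in Clark 8 also share their variance estimate with those in Clark 18a.

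Transcripts that rose and fell differed in length. The median cDNA length was 1634.5 bases for genes higher in black, 2081 for genes lower in black and 1728 for all tested genes, and the median coding lengths were 987, 1401 and 1068 bases. The part outside the coding sequence had similar medians, 591, 601 and 580 bases. In the shortest of 5 equal classes of genes, up to 1041 bases, 8.47% were higher and 3.93% lower. In the longest, from 2637 bases, 7.15% were higher and 9.65% lower. This order of the medians over all called genes, with the fallen genes longer, held in each of the 29 other settings, and within the classes of genes from 1 to 3, 3 to 10, 10 to 30 and 30 to 100 RPKM. It did not hold among the largest changes: the 397 genes that rose by at least 2 (log2) had a median cDNA of 1446 bases and the 42 that fell by as much had 1242.

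The lean towards shorter transcripts in black was present in each pair of libraries and over all tested genes, called or not. The median black minus yellow difference went from 0.04, 0.07 and 0.03 (log2) in the shortest class to -0.09, -0.15 and -0.17 in the longest, in pairs 1, 2 and 3 of Clark 18a. In Clark 8 it went from 0.00, 0.06 and -0.04 to -0.19, -0.22 and -0.16. The part of this lean in the calls was not tested.

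**Figure D4:**
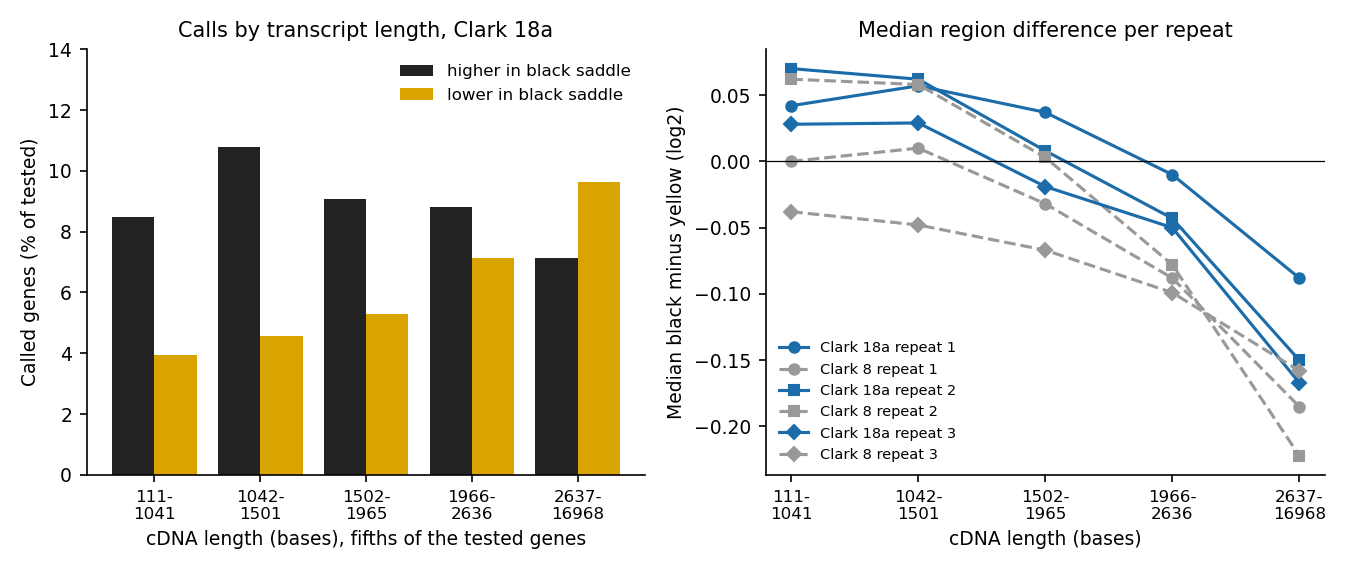
Left, percent of tested genes called higher (black bars) or lower (yellow bars) in the Clark 18a black saddle (vertical) in 5 equal classes of cDNA length in bases (horizontal). Right, median black minus yellow difference of log2(RPKM + 1) over the genes of each length class, for each repeat of Clark 18a (blue) and Clark 8 (grey); all 6 lines descend, from between -0.04 and 0.07 in the shortest class to between -0.22 and -0.09 in the longest.

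The calls by transcript model were more evenly split between the directions than those by gene. A count by model gives more weight to genes with several models. Such genes were 44.4% of the fallen, 31.3% of the risen and 37.8% of all tested genes. Their part in the even split was not tested. Of 56152 models tested on their own, 8981 (16%) passed, 4580 higher and 4401 lower in black. Among 11675 genes with at least 2 tested models, 1932 had a model that passed. All tested models rose in 851 of them and all fell in 821, some but not all rose in 87 and some but not all fell in 173. No gene had called models in opposite directions. How hits shared between models were assigned is not given in the sources used here, so models of 1 gene are not independent measurements.

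The 3 pairs of Clark 18a were less alike than those of Clark 8. Over the 30775 tested genes, the black minus yellow differences of repeats 1 and 2 correlated at r = 0.821, those of 1 and 3 at 0.631 and those of 2 and 3 at 0.699. In Clark 8 the values were 0.912, 0.840 and 0.825. These are descriptions across genes, which share libraries and are not replicates. The SD of the differences was 0.617, 0.673 and 0.711 in Clark 18a and 0.614, 0.586 and 0.639 in Clark 8.

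The genes that passed in Clark 18a mostly had the same direction in Clark 8. Of the 2726 risen genes, 2708 were higher in Clark 8 black (99.3%) and 1982 passed there as higher (72.7%). Of the 1881 fallen genes, 1878 were lower (99.8%) and 1128 passed as lower (60%). Both tests used the same variance for a gene, estimated from all 12 libraries. The calls in Clark 8 are therefore not independent of the choice of genes in Clark 18a. Over all tested genes, 82% had the same sign in both lines, and in Clark 8 13.9% passed, 7.51% as higher and 6.35% as lower. The median differences in Clark 8 were 0.96 and -0.60, smaller than the 1.10 and -0.74 by which the genes had been chosen in Clark 18a.

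Where the region difference itself was compared between the lines, 5 of 30775 genes (0.0162%) passed in limma's interaction term, and 767 had an unadjusted p under 0.05. In 13 of the 27 other settings no gene passed. The largest positive term was that of Glyma.03G074000 on chromosome 3, at 2.98 (SE 0.318, adjusted p = 0.0286). In Clark 18a it measured 0.851, 1.65 and 1.70 RPKM in black and 0.257, 0.539 and 0.933 RPKM in yellow, which did not pass as a region difference (0.61, adjusted p = 0.0969), whereas the fit blocked by repeat gave an adjusted p of 0.0142. In Clark 8 it measured 0.886 ± 0.117 RPKM in black and 8.97 ± 2.64 in yellow. It was the 1 gene whose interaction passed when the repeat of each line was blocked (adjusted p = 0.0431).

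Glyma.10G002200 on chromosome 10 was near 0 in both regions of Clark 18a, at 0.0107, 0.104 and 0.121 RPKM in black and 0.0235, 0.116 and 0.252 RPKM in yellow. In Clark 8 it was as low in black, at 0.0771 ± 0.0437 RPKM, and reached 5.52 ± 1.90 RPKM in yellow (SD, n = 3 each). Its interaction term was 2.49 (SE 0.277, adjusted p = 0.0286 in limma, 0.0681 with the block). Glyma.02G002100 on chromosome 2 had the same pattern at a lower level, with means of 0.0361 and 0.0539 RPKM in Clark 18a black and yellow and 2.11 ± 0.566 RPKM in Clark 8 yellow, and a term of 1.56 (SE 0.198, adjusted p = 0.0483, 0.0847 with the block). Both have a cDNA of 1062 bases and a coding length of 453 bases. Whether they share hits was not tested. Both reached 1 RPKM in Clark 8 yellow alone, so they entered the test only through the group where they are high. Glyma.02G002100 missed the level set for naming genes and was added after its values were seen.

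The largest negative terms belonged to genes that were higher in Clark 8 black than anywhere else. Glyma.08G109400 on chromosome 8 measured 2.15, 2.65 and 2.91 RPKM in Clark 18a black and 2.24, 2.14 and 3.44 RPKM in yellow, with overlapping groups, and 12.4 ± 0.573 RPKM in Clark 8 black against 2.88 ± 0.530 in yellow. Its term was -1.80 (SE 0.221, adjusted p = 0.0434 in limma, 0.0823 with the block). Glyma.11G073700 on chromosome 11 was higher in black in both lines. It measured 2.78, 2.60 and 2.58 RPKM in Clark 18a black and 1.00, 1.39 and 0.808 RPKM in yellow, which passed as a rise of 0.83 (SE 0.124, adjusted p = 0.00115). In Clark 8 it measured 18.1 ± 1.04 and 2.70 ± 0.382 RPKM, and the term was -1.54 (SE 0.175, adjusted p = 0.0286, 0.085 with the block).

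**Figure D5:**
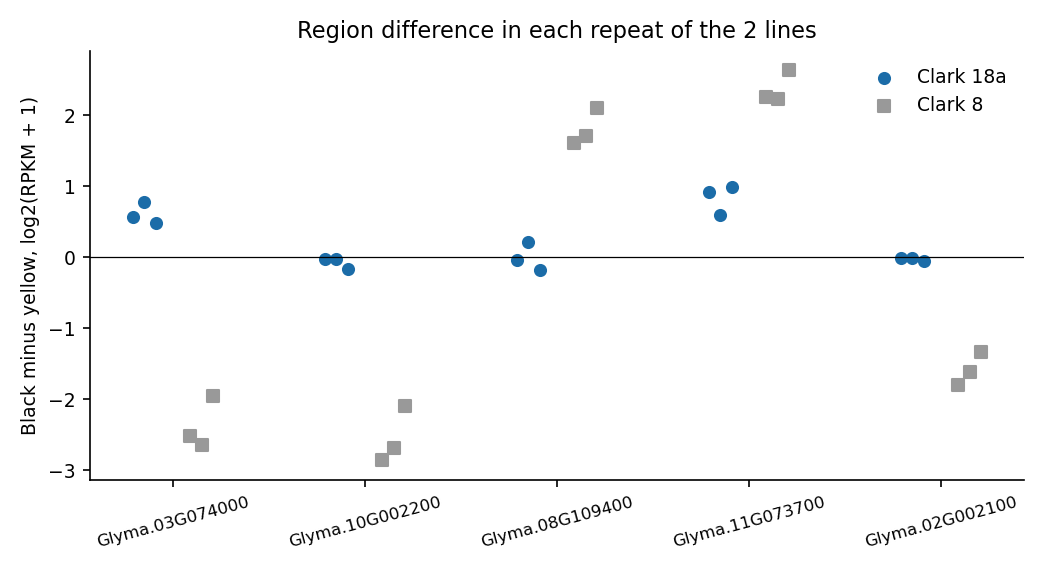
Black minus yellow difference of log2(RPKM + 1) in each repeat (vertical) for the 5 genes whose region difference passed as different between the lines (horizontal), with Clark 18a as blue circles and Clark 8 as grey squares, repeats 1 to 3 from left to right. The lines do not overlap for any of the 5, which were chosen by a test on these same differences. The Clark 18a points lie between -0.18 and 0.22 for 3 of them.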

How the data were processed

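Sequencing of polyadenylated RNA used an Illumina HiSeq, per the labels' protocols, and Bowtie 1 is the aligner per the submitters' processing notes. The authors computed RPKM for 88647 models belonging to 56044 genes, and their deposited table also lists coding and cDNA lengths, per the file headers. Not given in the sources used here are the genome build, the annotation, the strand and the handling of hits to several places, so near-identical or overlapping genes can share hits. RPKM multiplied by cDNA length gave whole hits for 100% of low values (within 0.05 of a whole hit), from which the depth of each library was recovered. No value column was left without a sample (0 unmatched).

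Of several models the one with the longest cDNA stood for the gene, and the tests covered genes that reached 1 RPKM in at least 3 of the 12 libraries. Log2(RPKM + 1), a scale that understates changes of low genes, was modelled in limma 3.58.1 (R 4.3.3), with 1 mean for each of the 4 groups and with the variance estimated from all 12 libraries along an intensity trend. Calls used a Benjamini-Hochberg adjusted p under 0.05 over all tested genes, two-sided. With 3 libraries a side, an exact permutation test has a smallest p of 0.1. The fit was also run on simulated data with independent libraries, which lack the pairing by repeat described next. No result here rests on that run. Repeats carry the same number in both regions per the labels, and deviations of same-numbered black and yellow libraries from their group means correlated at 0.577, 0.522 and 0.61 in Clark 18a, and at 0.745, 0.592 and 0.724 in Clark 8. The numbers were therefore taken to pair the samples, and fits with the repeat as a block are given beside the results they change.

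The rule for named genes took the largest 2 rises and 2 falls of the region difference and of the interaction, among called genes with a mean of at least 5 RPKM in the highest group. For the region difference the black and yellow libraries must not overlap, and for the interaction the 3 repeat differences of the lines must not. The comparison, the rule and the lists were chosen with earlier results of these data known. None of the lines of the reference table (assembly Glycine_max_v4.0) carries an identifier of the deposited table (0 matches), so 10 gene lists defined by annotation words, including markers of other tissues, could not be used. Other settings covered the block, the pseudocount, the minimum level, the normalization, the choice of model, array weights, voom on recovered hits, and leaving out libraries.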

Additional observations from a re-analysis of the deposited data

Results flagged for a closer look

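In 5 genes the black minus yellow difference was itself different between Clark 18a and Clark 8 by limma's interaction term, 5 of 30775 tested. Of these, Glyma.10G002200 and Glyma.02G002100 reached 1 RPKM in Clark 8 yellow alone. They entered the test only through the group where they are high. The term, Clark 18a minus Clark 8 on the log2(RPKM + 1) scale, was 2.98 for Glyma.03G074000, 2.49 for Glyma.10G002200 and 1.56 for Glyma.02G002100, and -1.80 for Glyma.08G109400 and -1.54 for Glyma.11G073700. Their adjusted p-values lay between 0.0286 and 0.0483, and the 3 repeat differences of the lines did not overlap for any of them. The term was computed from these same differences, and the share without overlap over all tested genes was not counted. The lack of overlap is therefore no further support. When 1 library at a time was left out, the call was kept in 3 of 12 cases for Glyma.03G074000, in 2 for Glyma.10G002200 and for Glyma.11G073700, and in 1 for Glyma.08G109400 and for Glyma.02G002100. The adjusted p then ran from 0.0119 to 0.156, from 0.00184 to 0.156, from 0.0406 to 0.156, from 0.0447 to 0.197 and from 0.0295 to 0.271 in that order of genes.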

How the results depend on the processing

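No direction was reversed in the 29 alternatives for the region difference or the 27 for the interaction. Some of these could not reverse a direction, since they left each gene's estimate as it was. For the region difference they were the blocks, the 6 Clark 18a libraries alone, the minimum levels and the fit without an intensity trend. Leaving out 1 library of the other line could not move that difference either. For the interaction they were the blocks, the minimum levels and the fit without the trend. The choice of model could not move the estimate of a named gene that has only 1 model. As reported, 4607 genes passed, 2726 higher and 1881 lower in the black saddle, and 5 passed for the interaction. The repeat as a block within each line gave 12016 calls (6097 higher, 5919 lower, 1 for the interaction), a block shared by the lines gave 7907 (4182 higher, 3725 lower, 0 for the interaction), and the block in the 6 Clark 18a libraries alone gave 7392 (3322 lower). Those 6 libraries without the block gave 2894 calls (980 lower). Without a minimum RPKM 4336 genes were higher and the interaction called 10, and with a minimum of 5 RPKM, which left 15958 genes to test, 2191 passed (1294 higher, 897 lower, 0 for the interaction). The interaction called 0 genes with a pseudocount of 0.1, 2 with 0.5, 0 with the minimum set in the 6 Clark 18a libraries, 1 after quantile normalization, 2 when models were summed, 28 with array weights, 0 with voom on the recovered hits (which called 4649 genes for the region) and 1 without all libraries of repeat 3. With the minimum set in the 6 Clark 18a libraries, Glyma.03G074000, Glyma.10G002200 and Glyma.02G002100 were not tested. Settings with 0 calls had 338 to 1405 genes at an unadjusted p under 0.05. Leaving out 1 library at a time gave 2952 to 5693 calls for the region, 998 to 2717 of them lower, and 0 to 7 for the interaction. The region count moved by over 1.5 times without Clark 18a yellow repeat 1 (2985, with 1084 lower) or 2 (2952, with 998 lower), and the lower count also without black repeat 2 (1161). Causes of these changes were not tested. Rises of at least 2 (log2) numbered 327 to 1221 and falls 34 to 188 over the settings, and rises outnumbered falls in each.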
